A study of Oryza sativa with 216 samples.

Results

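The mean expression level of all 210 recombinant inbred lines (RILs) of the rice cross between Zhenshan 97 and Minghui 63 was set against the mid-parent value, the mean of the 2 parental means with each parent weighted equally. The population was used to map regulators of gene expression in the flag leaf, the last leaf formed before the panicle, at heading. All arrays of the series and all 57258 probe sets that are not spike-in or other array controls were used, so no probe set was chosen by its values. RILs were sown in 2 batches 45 days apart and the parents in 3, flag leaves of 3 plants were taken from each line in each batch, and the RNA of a RIL's 2 batches was mixed 1:1, which left 1 array for each line. The groups are the 210 RILs, untreated homozygous indica lines bred by single-seed descent from this cross, the 3 arrays of untreated Zhenshan 97 and the 3 arrays of untreated Minghui 63, all flag leaf at heading. A RIL array therefore averages 2 sowings, each parental array is labelled a biological replicate, and nothing in the labels says that a parental array was mixed in the same way. The p-values below measure only the spread between these arrays, and a difference in sampling or processing between the RIL arrays and the parental arrays cannot be told apart from a difference between the lines.

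In an inbred line derived by repeated selfing nearly every locus carries the allele of either parent in the homozygous state, and a set of such lines shuffles the parental alleles against each other. Where alleles of unlinked loci add up and both parents contribute equally, the mean of many lines lies at the mid-parent value. Where loci interact, or where the alleles of 1 parent are passed on more often, it need not. At heading the flag leaf is the main source of sugar for the grain, so its transcripts are dominated by those of photosynthesis, and it also holds the machinery that senses day length, moves metals and nitrogen and answers to stress.

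Values are log2 RMA levels, background-corrected and summarised per probe set by the authors, and a difference of 1 is a doubling. Array medians were 5.15 to 5.32 in the RILs, 5.15 to 5.24 in Zhenshan 97 and 5.2 to 5.25 in Minghui 63. The dap spike-in control varied more between RIL arrays, at 9.43 to 11.50, than in Zhenshan 97 (10.38 to 10.54) or Minghui 63 (10.39 to 10.55). What lies behind this was not tested. The 3' over 5' difference of the array's control transcripts, which grows with RNA breakdown, averaged 0.875 ± 0.117 over the 210 RILs, 0.797 ± 0.106 over the 3 Zhenshan 97 arrays and 0.703 ± 0.0558 over the 3 Minghui 63 arrays (mean ± SD). With it as a covariate 4513 probe sets were called in place of the 4286 given next. Correlations with the median array were 0.982 to 0.994 in the RILs, 0.976 to 0.985 in Zhenshan 97 and 0.984 to 0.990 in Minghui 63. Pairs of arrays were also compared by their deviations from each probe set's mean over all arrays, on the 6056 probe sets with an SD above 0.4. These deviations correlated at 0.453 to 0.80 within a parent and at a median of -0.006 between RILs. In 36 of 21945 pairs of RILs they correlated at 0.453 or more, with lines 19 and 20 the closest at 0.807. Leaving out 32 lines of such pairs gave 4197 calls. The median level of 15 light harvesting and photosystem genes stood at percentile 99.6 of all probe sets, that of 64 histone and cell cycle genes at 63.5, and those of 17 floral organ MADS genes, 9 anther and pollen genes and 11 seed storage genes at 29.7, 28.7 and 28.6. Levels of different probe sets are not on 1 scale, so these ranks only describe the lists. Single members of the last 3 stood far higher, among them OsMADS18 at 99.4, DTM1 at 83.5, GLUA-2 at 94.1 and GLB at 95.7, the last of which matched by its name but is annotated as a nitrogen regulatory protein.

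The RIL mean left the mid-parent value in 4286 of 57258 probe sets (7.49%; limma with Benjamini-Hochberg adjustment at 0.05), of which 1876 (3.28%) were higher in the RILs and 2410 (4.21%) lower. Most departures were small. Among called probe sets the median absolute difference was 0.35 on the log2 scale (quartiles 0.26 and 0.50), 691 were at least 1.5-fold (378 higher and 313 lower), and 81 higher and 41 lower ones (0.213% of all) reached 1 or more. Over all probe sets the median difference was -0.00227 with an SD of 0.20, and the extremes were -1.99 and 2.13. The probe sets beside the threshold had adjusted p-values of 0.0499976 just inside it and 0.0500258 just outside.

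**Figure D1:**
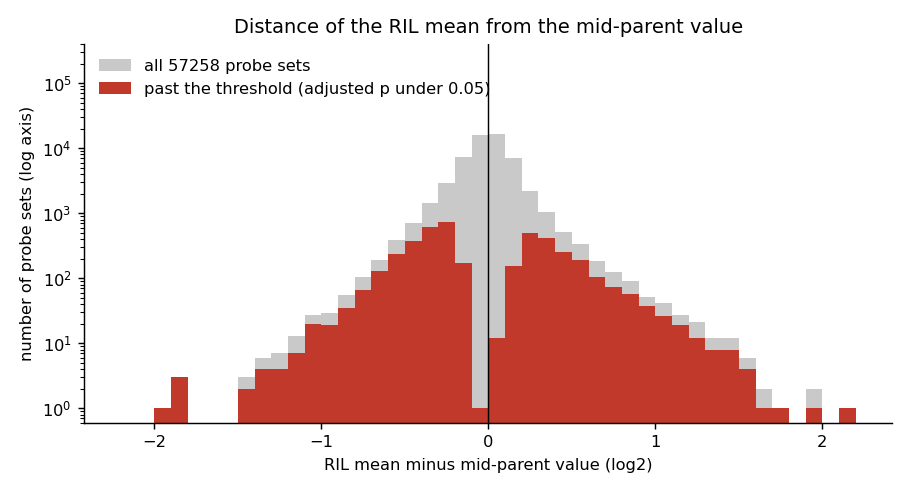
Number of probe sets (log axis) by the difference between the RIL mean and the mid-parent value on the log2 scale, for all 57258 probe sets in grey and the 4286 past the threshold in red. Calls of 1 or more are more frequent on the side where the RILs are higher (81) than where they are lower (41).

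Of the called probe sets, 554 (12.9%) had a RIL mean between the parental means and 3732 had it beyond both, and in 1917 (44.7%) the RIL mean lay beyond all 6 parental arrays, above them in 1027 and below them in 890. These positions belong to the same contrast as the calls, so they describe the called set and are no further test. Over all probe sets, called or not, 50.7% of RIL means lay beyond both parental means and 7.97% beyond all 6 parental arrays. The parents themselves differed in 4887 probe sets (8.54%), and 1037 of the 4286 (24.2%) were among them.

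The count depends on how the spread is estimated. The common fit takes nearly all of its spread from the 210 RILs, and with a spread of its own for the RILs and for the parents 931 probe sets (1.63%) were called, 694 of them higher in the RILs, and 625 were shared with the 4286. The SE given with each difference below comes from the common fit. Where the arrays of a parent lie far apart, it understates the error of that parent's mean. Without the third Zhenshan 97 array 2426 were called, and without the first Minghui 63 array 2575. Among the 2410 lower calls the highest parental value was on the first Zhenshan 97 array in 34.4% and on the third in 30.2%, against 14.3% and 15.9% of all probe sets. Among the 1876 higher calls the lowest parental value was on the third Zhenshan 97 array in 39.4%, against 17.4% of all.

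Only 10 probe sets (0.0175%) had a RIL mean that differed from both parents in the same direction, each with the larger of the 2 p-values adjusted by Benjamini-Hochberg, and in all 10 the RILs were higher. No probe set (0.0%) was called below both parents. At an unadjusted p under 0.05, 1389 probe sets lay outside both, 735 above and 654 below, which is 2.43% of those tested. None of the 10 has a gene name in the tables used here, 6 pair with 1 gene identifier, and all are given because they passed this test, not by the rule for named genes.

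OsAffx.26210.1.S1_at, which pairs with no gene, showed the cleanest separation. Its levels over the RILs were 5.44, 6.11 and 6.91 (lowest, median and highest line, an order kept below), against 5.06, 5.19 and 4.93 on the Zhenshan 97 arrays and 5.21, 5.02 and 5.24 on the Minghui 63 arrays. All 210 lines lay above every parental array. The RIL mean exceeded the mid-parent value by 0.99 ± 0.11 (SE), a 1.99-fold difference (adjusted p outside both parents 3.87e-05, limma). This was the only member of the 10 called outside both parents under all 15 alternative fits, and with separate spreads its adjusted p was 0.0242, whereas the other 9 had values between 0.194 and 0.985.

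The gene LOC4343046, for which the tables give no name, was almost as clearly apart. Its RIL levels were 10.08, 10.69 and 11.07, against 9.98, 10.18 and 10.05 in Zhenshan 97 and 10.11, 10.03 and 10.02 in Minghui 63. The parents were nearly level with each other, and 99% of the 210 lines exceeded all 6 of their arrays. The difference was 0.60 ± 0.07 (SE; adjusted p 0.000361), and the call was lost without the first Zhenshan 97 array and with separate spreads. LOC4335809, annotated as a pseudogene, had RIL levels of 8.50, 9.30 and 9.91, against 8.50, 7.997 and 7.73 in Zhenshan 97 and 8.52, 8.74 and 8.60 in Minghui 63. Here the Minghui 63 arrays stood above the Zhenshan 97 arrays and 98.6% of lines stood above both (difference 0.95 ± 0.10, SE; adjusted p 0.0219).

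LOC4352245, annotated as an RNA of miscellaneous type, was represented by 3 of the 10 probe sets, which share their source and are not independent. On Os.27569.4.S1_x_at the RILs had levels of 8.09, 8.81 and 9.53, against 8.09, 7.501 and 7.60 in Zhenshan 97 and 7.80, 8.45 and 8.19 in Minghui 63. The difference was 0.88 ± 0.10 there (SE; adjusted p 0.0148), and 1.01 ± 0.13 and 0.87 ± 0.11 on the other two. Between 93.8% and 95.2% of lines were above all parental arrays on these probe sets. A pair of probe sets with no gene, Os.38283.1.S3_a_at and Os.38283.1.S2_a_at, differed by 0.87 ± 0.09 and 1.06 ± 0.13 (adjusted p 3.87e-05 and 0.013). On the S3 probe set the RIL levels were 11.04, 11.73 and 12.24, against 11.18, 10.56 and 10.54 in Zhenshan 97 and 10.51, 11.26 and 10.97 in Minghui 63, and 98.1% of lines exceeded all parental arrays. The last 2, Os.28411.1.S1_at and LOC4340886, differed by 0.83 ± 0.11 and 0.88 ± 0.12, with 82.4% and 77.1% of lines above all 6 parental arrays. All 10 were called above the mid-parent value under every one of the 15 alternative fits, but the number called outside both parents ran between 2 without the first Minghui 63 array and 23 with separate spreads, and only OsAffx.26210.1.S1_at was in both of those 23 and these 10.

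**Figure D2:**
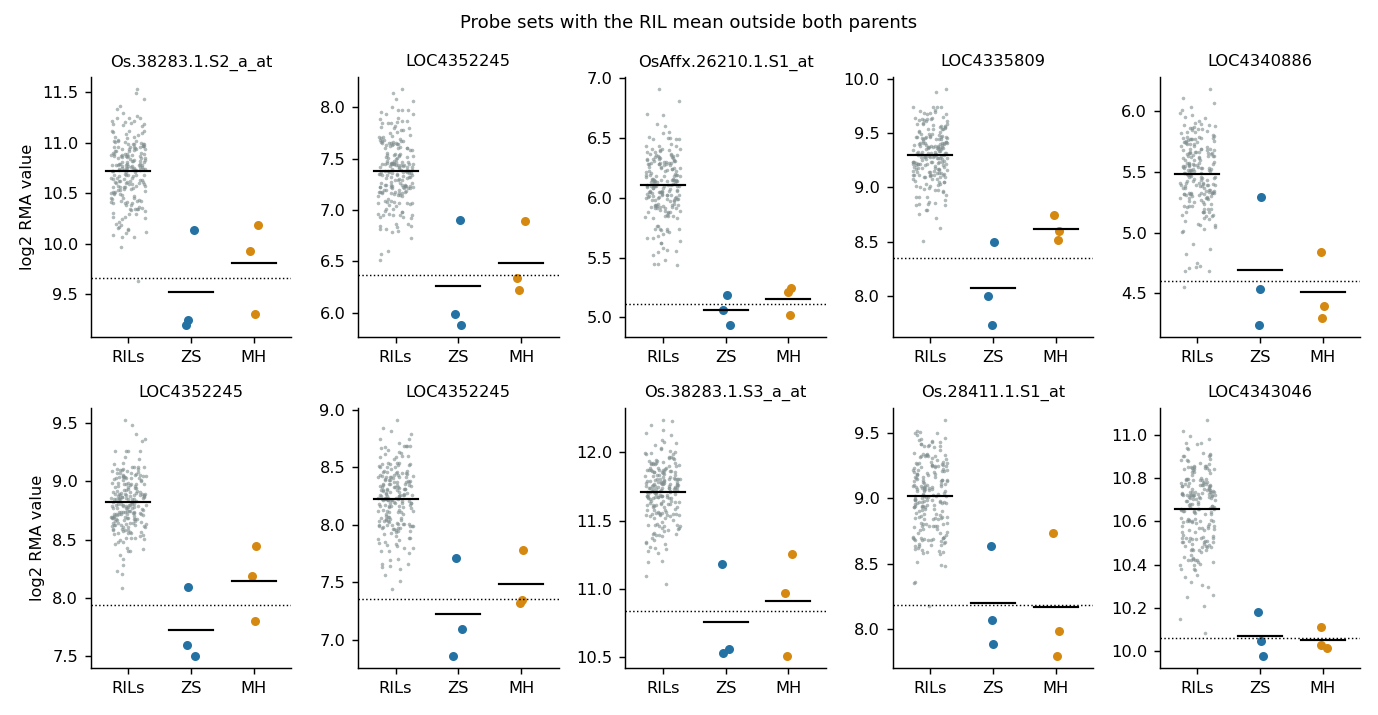
Log2 RMA level of the 10 probe sets called outside both parents, with each RIL in grey, Zhenshan 97 (ZS) arrays in blue and Minghui 63 (MH) arrays in orange; bars are group means and the dotted line is the mid-parent value. On OsAffx.26210.1.S1_at all 210 lines lie above the parental arrays, while on LOC4340886 77.1% do.

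Of the 10 highest and the 10 lowest differences, 18 belonged to probe sets without a gene name. Given here because of their size are the 4 of these that pair with a gene identifier and, of the 14 that pair with none, the highest and the lowest. The other 12, of which 6 were higher and 6 lower in the RILs, reached 1.71 and -1.90. LOC4332530 had RIL levels of 9.07, 9.62 and 10.38, against 5.64, 4.56 and 5.65 in Zhenshan 97 and 9.64, 9.81 and 9.70 in Minghui 63. Every line was near the level of Minghui 63 and none was near Zhenshan 97, so the RIL mean exceeded the mid-parent value by 2.13 ± 0.09 (SE; adjusted p 1.26e-58). LOC4335374 had RIL levels of 8.83, 12.88 and 13.96, against 9.41, 10.31 and 9.82 in Zhenshan 97 and 12.44, 12.07 and 13.01 in Minghui 63 (difference 1.54 ± 0.29, adjusted p 5.46e-05). Only 1 of its lines lay below all 6 parental arrays and 37.6% lay above them, and 95.7% of lines were nearer Minghui 63. LOC4351993, in which the parents overlapped, had RIL levels of 2.42, 4.94 and 7.34, against 4.09, 3.57 and 3.32 in Zhenshan 97 and 3.05, 3.92 and 3.004 in Minghui 63 (difference 1.49 ± 0.38, adjusted p 0.00459). Os.9209.2.S1_at, with no gene, was higher by 1.94 ± 0.35 with 95.2% of lines above all 6 parental arrays.

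On the lower side the farthest was Os.49059.1.A1_at, again without a gene. It had RIL levels of 3.98, 4.73 and 8.79, against 8.96, 8.18 and 11.05 in Zhenshan 97 and 4.50, 4.55 and 4.64 in Minghui 63. Most lines were at the low level of Minghui 63, and the difference was -1.99 ± 0.34 (SE; adjusted p 5.59e-06). LOC4348621 had the same arrangement, with RIL levels of 3.53, 4.12 and 5.93, against 7.41, 4.83 and 8.94 in Zhenshan 97 and 3.91, 4.24 and 3.92 in Minghui 63. Its difference was -1.36 ± 0.17 (adjusted p 3.63e-10), and with separate spreads its adjusted p was 0.174.

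Turning to genes with a name, each read from the probe set with the highest mean, 291 of 2451 were called (11.9%), with 4.32% higher in the RILs and 7.55% lower. The counts for each gene group below are to be read against these shares. With separate spreads 34 of the 2451 (1.39%) were called.

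Genes of metal transport and nicotianamine synthesis were lower in the RILs more often than higher. Of 52 such genes, 12 fell and 1 rose, and their median difference was -0.04, close to the median of -0.02 over all named genes; this list was drawn up after its values were known. OsZIP4, a zinc transporter of the plasma membrane, was called under all 15 alternatives. Its RIL levels were 5.99, 7.17 and 8.25, against 8.99, 8.65 and 9.55 in Zhenshan 97 and 7.09, 6.30 and 7.14 in Minghui 63. No line reached the lowest Zhenshan 97 array, and the RIL mean was 1.76-fold below the mid-parent value (-0.82 ± 0.18, SE; adjusted p 0.00057).

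OsNAS3, a nicotianamine synthase making the metal chelator that carries iron and zinc through the plant, had RIL levels of 4.40, 6.66 and 9.77, against 8.72, 6.21 and 10.08 in Zhenshan 97 and 7.68, 7.18 and 7.75 in Minghui 63. The Zhenshan 97 arrays were far apart and enclosed those of Minghui 63, and 33.3% of lines were below all 6. The difference of -1.34 ± 0.40 (adjusted p 0.0201) was -0.90 without the third Zhenshan 97 array, and it was not called without the first Zhenshan 97 array (0.0827), the third Zhenshan 97 array (0.267), the first Minghui 63 array (0.0719) or the third Minghui 63 array (0.0601). OsZIP2, of the same zinc transporter family, differed by -0.87 ± 0.24 (adjusted p 0.0114), with RIL levels of 6.01, 7.11 and 9.37, against 10.54, 7.45 and 8.80 in Zhenshan 97 and 6.79, 8.43 and 6.38 in Minghui 63. The first Zhenshan 97 array was the highest, and without it the difference was -0.47 (adjusted p 0.354); without the second Minghui 63 array the adjusted p was 0.241.

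Other metal genes, named after their values were seen, were the vacuolar iron transporter gene OsVIT1 (-0.55, adjusted p 0.000457) and the copper ATPase gene OsHMA5 (-0.36, adjusted p 0.003), which fell, and OsMTP1, for a protein that loads metals such as zinc into the vacuole, which rose (0.17, adjusted p 0.0217). With separate spreads 3 of the 52 were called, all lower. Metallothioneins, small proteins that bind metals, had 2 of 7 genes lower and none higher, and none called with separate spreads. OsIDS1 among them had RIL levels of 11.35, 11.90 and 12.57, against 12.59, 11.95 and 12.70 in Zhenshan 97 and 12.62, 12.20 and 12.83 in Minghui 63. The RIL mean lay below every parental array, as did 58.6% of lines, and the difference was -0.58 ± 0.10 (adjusted p 7.57e-06; with separate spreads 0.0519).

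In the synthesis of aromatic amino acids, phenylpropanoids and lignin, 7 of 31 genes fell and none rose, with a median difference of -0.26 and 23 of the 31 below 0. This list too was drawn up after its values were known. DAHPS2, for the enzyme that opens the shikimate pathway that feeds this synthesis, is outside the list, which was built on names. It had the lowest difference among called named genes after OsNAS3. Its RIL levels were 6.82, 8.21 and 10.33, against 10.57, 10.23 and 9.68 in Zhenshan 97 and 8.75, 9.37 and 9.01 in Minghui 63. The RIL mean lay below all 6 parental arrays, and so did 78.6% of the 210 lines. The difference was -1.33 ± 0.22 (SE), or 2.52-fold lower (adjusted p 1.73e-06), and it was called under all 15 alternatives, with separate spreads at 0.00118. A second DAHPS2 probe set, Os.22631.2.S1_s_at, was not called (-0.45, adjusted p 0.194).

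OsASB1 and OsASB2, for the beta subunits of anthranilate synthase on the way to tryptophan, differed by -0.56 (adjusted p 6.02e-05; named after its values were seen) and -0.65 ± 0.14 (adjusted p 0.000644). For OsASB2 the SD was 1.27 between the Zhenshan 97 arrays and 0.326 between the RILs, and with separate spreads its adjusted p was 0.287. The RIL levels of OsASB2 were 7.46, 8.11 and 9.76, against 10.59, 8.06 and 9.39 in Zhenshan 97 and 8.24, 8.19 and 8.196 in Minghui 63. Its RIL median was close to the second Zhenshan 97 array and to Minghui 63, and only the other Zhenshan 97 arrays were high, so that without the first of them the difference was -0.34 (adjusted p 0.198). OsHCT2, a hydroxycinnamoyl transferase of the phenylpropanoid pathway, had RIL levels of 7.64, 8.56 and 9.54, against 10.51, 9.30 and 9.02 in Zhenshan 97 and 8.79, 9.42 and 8.75 in Minghui 63, and 65.2% of lines were below all parental arrays (difference -0.71 ± 0.18, adjusted p 0.00326; 0.131 without the first Zhenshan 97 array). OsCAD2, a cinnamyl alcohol dehydrogenase that makes the alcohols from which lignin is built, had RIL levels of 7.62, 8.62 and 12.21, against 12.53, 8.93 and 10.63 in Zhenshan 97 and 8.51, 8.65 and 8.36 in Minghui 63. Its difference of -0.87 ± 0.26 (adjusted p 0.0192) was -0.41 without the first Zhenshan 97 array, and it was not called without the first Zhenshan 97 array (0.472), the third Zhenshan 97 array (0.0547), the first Minghui 63 array (0.06) or the second Minghui 63 array (0.0699). Averaged over the 31 genes, the RILs had levels of 7.495, 7.91 and 8.68, against 9.08, 7.91 and 8.39 in Zhenshan 97 and 7.95, 7.97 and 7.92 in Minghui 63. The list mean was thus high on the first and the third Zhenshan 97 arrays and level elsewhere, and with separate spreads 1 of the 31 genes was called.

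**Figure D3:**
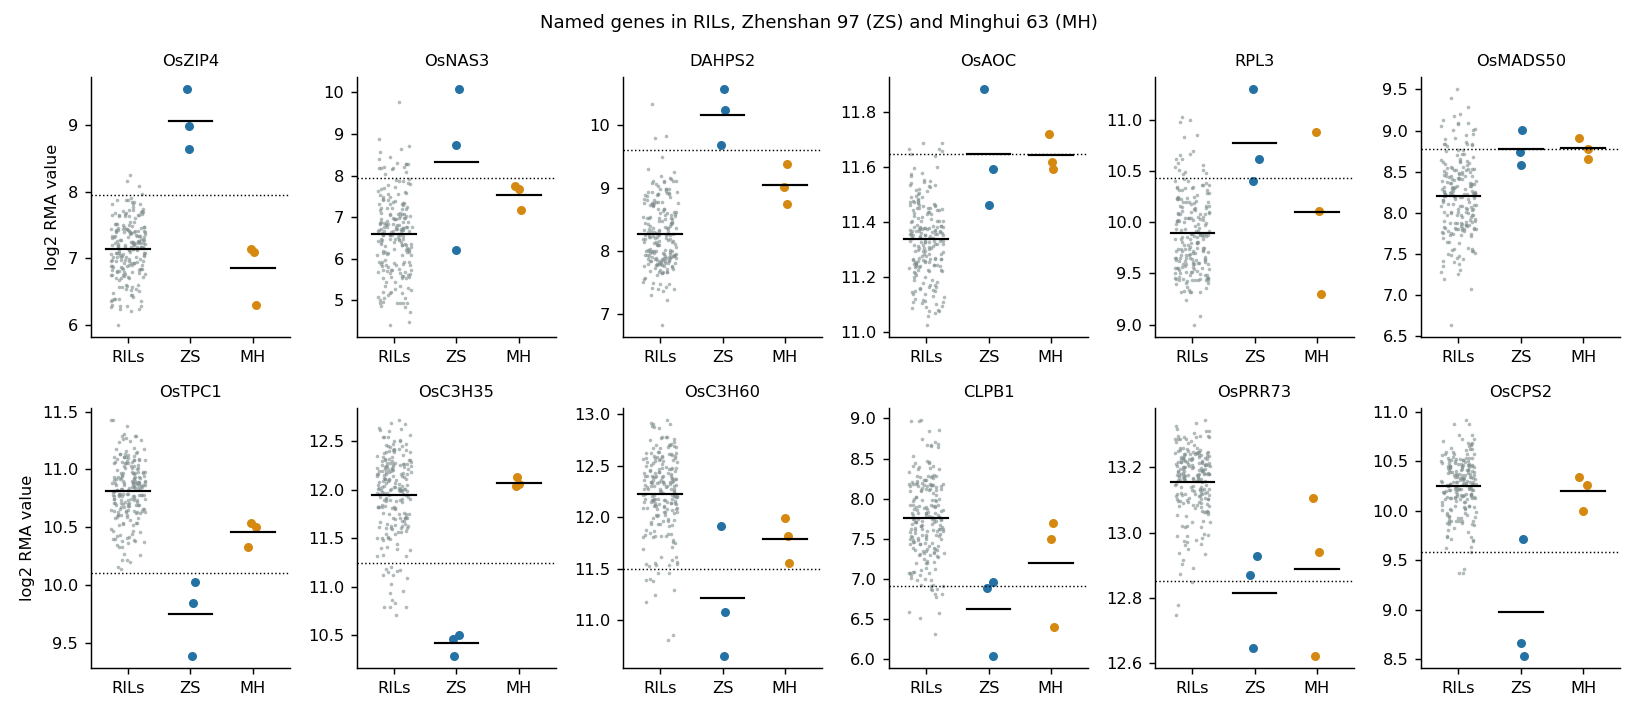
Log2 RMA level of 12 named genes, with each RIL in grey, Zhenshan 97 (ZS) arrays in blue and Minghui 63 (MH) arrays in orange; bars are group means and the dotted line is the mid-parent value. In DAHPS2 the RIL mean lies below all 6 parental arrays, in OsTPC1 and OsPRR73 it lies above them, and in OsZIP4 and OsC3H35 it lies beside Minghui 63.

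Cytosolic ribosomal proteins had the lowest median of all 34 lists, -0.38. All 31 genes had a RIL mean below the mid-parent value, and 11 passed the threshold (35.5%, against 7.55% of named genes lower). RPL3, of the large subunit, had RIL levels of 8.99, 9.86 and 11.03, against 10.40, 10.62 and 11.30 in Zhenshan 97 and 10.10, 10.88 and 9.30 in Minghui 63. Its RIL median fell inside the wide range of the Minghui 63 arrays and below all of Zhenshan 97 (difference -0.54 ± 0.16, adjusted p 0.0197). QM1, a ribosomal protein of the L10 type, named after its values were seen, had the lowest adjusted p of the list (-0.39, adjusted p 0.000441). These genes moved together on single arrays. Averaged over the list, the RILs had levels of 9.61, 10.49 and 11.29, against 10.93, 10.79 and 11.43 in Zhenshan 97 and 10.59, 11.21 and 10.15 in Minghui 63, so the third Minghui 63 array lay below the RIL median and the third Zhenshan 97 and the second Minghui 63 arrays lay farthest above it. With separate spreads none of the 31 was called. RPL3 was not called without the third Zhenshan 97 array (0.195), the first Minghui 63 array (0.0622) or the second Minghui 63 array (0.298).

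The proteasome, which degrades tagged proteins, had 4 of 19 genes lower and none higher, with a median of -0.10. OsRPN11, whose product strips ubiquitin from proteins on their way into it, had RIL levels of 9.72, 10.28 and 10.78, against 10.79, 10.51 and 10.75 in Zhenshan 97 and 10.54, 10.36 and 10.51 in Minghui 63. The RIL mean was below every parental array, and 70% of lines were too (difference -0.31 ± 0.07, adjusted p 0.00189; with separate spreads 0.0904). OsPAG1, a subunit of the proteolytic core, differed by -0.19 ± 0.05 (adjusted p 0.00376) with 58.6% of lines below all 6 arrays. None of the 19 was called with separate spreads.

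Among genes of the jasmonate pathway, a hormone of wounding and defence, 3 of 37 fell and none rose. This share of 8.11% is near the 7.55% of all named genes called lower. Of the 37, 29 lay below 0 (median -0.13). OsAOC, for allene oxide cyclase in jasmonate synthesis, had RIL levels of 11.03, 11.34 and 11.69, against 11.59, 11.88 and 11.46 in Zhenshan 97 and 11.62, 11.59 and 11.72 in Minghui 63. Both parents were alike, and 82.9% of the 210 lines were below all 6 of their arrays (difference -0.31 ± 0.06, adjusted p 4.64e-05). OsJAZ6 and OsJAZ7, repressors of jasmonate signalling, differed by -0.35 ± 0.10 and -0.62 ± 0.20 (adjusted p 0.0153 and 0.0315), where OsJAZ6 was not called without the second Zhenshan 97 array (0.247) or the third Minghui 63 array (0.104) and OsJAZ7 not called without the second Zhenshan 97 array (0.232), the second Minghui 63 array (0.0785) or the third Minghui 63 array (0.169). With separate spreads no gene of the list was called, and OsAOC had an adjusted p of 0.088.

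Diterpenoid phytoalexin genes, which make antimicrobial compounds of rice, moved in both directions, with 3 of 18 higher and 2 lower, and with none of the 18 called under separate spreads. OsCPS2, a diphosphate synthase at the head of a branch, rose. Its RIL levels were 9.37, 10.28 and 10.92, against 8.53, 9.72 and 8.67 in Zhenshan 97 and 10.26, 10.001 and 10.34 in Minghui 63. The lines lay around Minghui 63 and 40% of them exceeded all 6 parental arrays (difference 0.67 ± 0.12, adjusted p 1.12e-05; with separate spreads 0.0814). CYP76M7, a P450 of phytocassane synthesis, was called lower, but its RIL mean was dim, at percentile 10.8 of all probe sets. Its RIL levels were 2.47, 2.95 and 3.87, against 5.83, 3.12 and 4.98 in Zhenshan 97 and 2.61, 2.91 and 3.001 in Minghui 63. Here 2 Zhenshan 97 arrays were high and every line was below both of them (difference -0.76 ± 0.12, adjusted p 2.05e-06; with separate spreads 0.254). CYP71Z7, another P450 of this pathway, differed by -0.96 ± 0.21 (adjusted p 0.000705) and, without the first Zhenshan 97 array, by -0.63 (adjusted p 0.0898). OsKS5, a kaurene synthase-like enzyme, was higher by 0.60 ± 0.19 (adjusted p 0.0341) but not called without the first Zhenshan 97 array (0.21), the third Zhenshan 97 array (0.23), the first Minghui 63 array (0.145), the second Minghui 63 array (0.0551) or the third Minghui 63 array (0.0604). Of 20 defence protein genes 2 were lower, the chitinase gene OsChia1a (-0.66 ± 0.19, adjusted p 0.0133) and OsNH1 (-0.55 ± 0.18, adjusted p 0.0386). The RIL mean of OsChia1a was dim too, at percentile 13.3. OsChia1a was not called without the first Zhenshan 97 array (0.266) or the second Minghui 63 array (0.358). OsNH1 was not called without the first Zhenshan 97 array (0.36), the first Minghui 63 array (0.0743) or the second Minghui 63 array (0.282). It was also lost with RNA quality as a covariate and without the close pairs of RILs. With separate spreads neither OsChia1a (0.323) nor OsNH1 (0.233) was called.

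Heat shock proteins and chaperones, which keep other proteins folded under stress, leaned the other way. Of 62 genes 6 rose and 3 fell, a share of 14.5% called that is not far from the 11.9% of all named genes. In 42 the difference lay above 0, and the median difference was 0.08. In all 14 were called after quantile normalization and also with dim probe sets left out, and 7 with centred arrays. CLPB1, a chaperone that takes protein aggregates apart, had RIL levels of 6.31, 7.75 and 8.98, against 6.89, 6.04 and 6.96 in Zhenshan 97 and 7.70, 6.40 and 7.499 in Minghui 63. Its difference was 0.84 ± 0.21 (SE; 1.79-fold, adjusted p 0.00386), and 55.2% of lines exceeded all parental arrays. OsHsp17.4, a small heat shock protein, had RIL levels of 4.99, 7.39 and 9.88, against 6.28, 7.09 and 7.88 in Zhenshan 97 and 5.54, 4.89 and 6.10 in Minghui 63. The lines were widely spread and enclosed all parental arrays but the second of Minghui 63 (difference 1.12 ± 0.38, adjusted p 0.0473). HSFA2D, a heat stress transcription factor, was higher by 0.54 ± 0.18 (adjusted p 0.0378), and OsHsf-23 differed by -0.61 ± 0.16 (adjusted p 0.00639).

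Each of these 4 calls was lost without some parental arrays. OsHsp17.4 was not called without the first Zhenshan 97 array (0.211), the second Zhenshan 97 array (0.0845), the first Minghui 63 array (0.112) or the second Minghui 63 array (0.188). It was also lost with RNA quality as a covariate and with centred arrays, and HSFA2D was lost without the close pairs of RILs. HSFA2D was not called without the first Zhenshan 97 array (0.428), the first Minghui 63 array (0.057) or the second Minghui 63 array (0.268), CLPB1 not called without the second Minghui 63 array (0.0921), and OsHsf-23 not called without the first Zhenshan 97 array (0.13) or the third Minghui 63 array (0.07). In all, 3 of the 62 were called with separate spreads, all higher. Dehydrins and related proteins of drying tissue had all 8 genes above 0 with a median of 0.28, but none was called, and RAB21 had RIL levels of 5.74, 7.26 and 10.23, against 5.58, 6.59 and 6.57 in Zhenshan 97 and 7.74, 7.93 and 6.71 in Minghui 63 (difference 0.61 ± 0.39, adjusted p 0.383).

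Chloroplast proteases and genes of thylakoid quality control, a list drawn up after its values were known, had 4 of 20 genes higher and none lower, with 15 above 0. CLPD2, a regulatory subunit of the Clp protease, was higher by 0.40 ± 0.10 (adjusted p 0.00476), with RIL levels of 8.93, 9.65 and 10.26, against 9.31, 9.35 and 9.21 in Zhenshan 97 and 9.13, 8.91 and 9.61 in Minghui 63. In 58.1% of lines it exceeded all 6 parental arrays, and it was not called without the second Minghui 63 array (0.0775). OsFTSH6, a thylakoid protease, differed by 0.76 ± 0.23 (adjusted p 0.019), and was not called without the first Zhenshan 97 array (0.194), the third Zhenshan 97 array (0.0646) or the second Minghui 63 array (0.308). The list mean was 9.97, 10.25 and 10.55 in the RILs, against 10.03, 10.11 and 10.20 in Zhenshan 97 and 10.16, 10.01 and 10.05 in Minghui 63, and 65.2% of lines were above all parental arrays. THF1, needed to form thylakoids, is not in this list and rose by 0.71 ± 0.14 (adjusted p 0.000212) with RIL levels of 7.77, 8.62 and 9.44, against 7.98, 7.49 and 7.41 in Zhenshan 97 and 8.13, 8.37 and 8.15 in Minghui 63. It was called under all 15 alternatives, whereas of the 20 list genes none was called with separate spreads, 2 with the arrays centred on their medians, 7 after quantile normalization and 6 with dim probe sets left out.

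The most abundant transcripts of the leaf moved little. Of 15 light harvesting and photosystem genes 4 rose, none fell, and the median difference was 0.07. RCABP69, a chlorophyll-binding protein, had RIL levels of 13.51, 13.83 and 14.03, against 13.57, 13.65 and 13.69 in Zhenshan 97 and 13.80, 13.70 and 13.87 in Minghui 63. All parental arrays lay within the range of the lines, and 31% of lines were above all 6, at a difference of 0.11 ± 0.04 (adjusted p 0.0326). PETE, the electron carrier plastocyanin, was 0.07 ± 0.02 higher (adjusted p 0.0483), and 87.6% of lines lay above all 6 parental arrays. Only 1 of the 15 was called after quantile normalization or centring of the arrays, none with separate spreads, and 6 with dim probe sets left out. PETE was not called when any parental array was left out (adjusted p 0.0819 to 0.124), and RCABP69 not called without the first Zhenshan 97 array (0.154), the second Zhenshan 97 array (0.0519), the first Minghui 63 array (0.0755) or the second Minghui 63 array (0.198). Both PETE and RCABP69 were also lost with RNA quality as a covariate. None of 8 Calvin cycle genes was called, and 2 were with RNA quality as a covariate.

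Primary nitrogen and carbon metabolism showed a few small calls. Fd-GOGAT, the glutamate synthase of leaf ammonium assimilation, had RIL levels of 13.35, 13.63 and 13.79, against 13.28, 13.44 and 13.37 in Zhenshan 97 and 13.52, 13.51 and 13.60 in Minghui 63, and 64.3% of lines exceeded all parental arrays (difference 0.17 ± 0.03, adjusted p 0.000314; with separate spreads 0.145). OsGLN2, the plastid glutamine synthetase of the same cycle, rose by 0.13 ± 0.03 (adjusted p 0.00205; with separate spreads 0.259). These were the only 2 of 21 nitrogen genes called, none was with separate spreads, and OsGLN2 was not called without the second Minghui 63 array (0.108) or after quantile normalization. AGPS2, a small subunit of the enzyme that commits glucose to starch, rose by 0.32 ± 0.06 (adjusted p 0.000173; with separate spreads 0.143) with RIL levels of 11.81, 12.55 and 12.90, against 11.82, 12.16 and 11.92 in Zhenshan 97 and 12.66, 12.13 and 12.73 in Minghui 63. Of 67 sucrose and starch genes 4 rose and 2 fell, and 1 was called with separate spreads. OsSWEET5, a sugar transporter, rose by 0.31 ± 0.09 (adjusted p 0.0228), and OsCIN1, an invertase of the cell wall that splits sucrose, fell by 0.32 ± 0.10 (adjusted p 0.0321). OsSWEET5 was not called without the first Zhenshan 97 array (0.0694), the third Zhenshan 97 array (0.0596), the first Minghui 63 array (0.0709) or the second Minghui 63 array (0.0941), and OsCIN1 not called without the first Zhenshan 97 array (0.156), the second Zhenshan 97 array (0.0526), the first Minghui 63 array (0.147) or the third Minghui 63 array (0.248). The OsCIN1 call was also lost with RNA quality as a covariate, after quantile normalization and with separate spreads.

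Among genes that time the day and flowering, OsPRR73 had the lowest adjusted p. It is a pseudo-response regulator of the circadian clock, and its RIL levels were 12.75, 13.18 and 13.35, against 12.87, 12.93 and 12.64 in Zhenshan 97 and 12.94, 12.62 and 13.11 in Minghui 63. The RIL mean was above every parental array and 74.3% of lines were too (difference 0.30 ± 0.04, adjusted p 5.52e-08; with separate spreads 0.101). OsPCL1, a clock transcription factor of the evening complex, fell by 0.41 ± 0.09 (adjusted p 0.000945), with RIL levels of 4.73, 5.26 and 6.09, against 6.72, 5.54 and 6.34 in Zhenshan 97 and 5.17, 5.49 and 5.004 in Minghui 63. Without the first Zhenshan 97 array its adjusted p was 0.0826. These were 2 of 8 clock genes, of which none was called with separate spreads.

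Of 22 flowering regulators 1 rose and 2 fell. OsMADS50, a promoter of flowering related to SOC1 of Arabidopsis, had RIL levels of 6.63, 8.22 and 9.51, against 8.59, 8.74 and 9.004 in Zhenshan 97 and 8.78, 8.91 and 8.66 in Minghui 63. The parents were level with each other, while the lines spread from far below them to above them, and 81.4% of them were below all 6 arrays (difference -0.58 ± 0.19, adjusted p 0.0417). It was called with separate spreads (adjusted p 0.0134) but not called when any parental array was left out (adjusted p 0.0631 to 0.158). OsMADS56 of the same family differed by -0.31 ± 0.10 (adjusted p 0.0378) and was not called with separate spreads (0.315). It was also lost without the second Zhenshan 97 array (0.374), the first Minghui 63 array (0.0585) or the second Minghui 63 array (0.352). Neither OsMADS50 nor OsMADS56 was called with RNA quality as a covariate or after quantile normalization. OsMADS18, related to the APETALA1 group, differed by 0.24 ± 0.07 (adjusted p 0.0158), with RIL levels of 12.17, 12.88 and 13.25, against 11.92, 12.84 and 12.02 in Zhenshan 97 and 13.06, 12.71 and 13.29 in Minghui 63. In that gene all lines lay within the range of the parental arrays, and it was not called without the first Zhenshan 97 array (0.262), the third Zhenshan 97 array (0.187) or the second Minghui 63 array (0.242). Of 17 floral organ MADS genes, which include OsMADS18, it was the only gene called. With separate spreads OsMADS18 was not called (adjusted p 0.413), and OsMADS3, lower in the RILs, was the only gene of the 17 that was (0.0273).

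Auxin response genes, a list that includes auxin response factors, rose in 5 of 58 cases and fell in none. OsARF1, an auxin response factor, had RIL levels of 11.43, 12.07 and 12.45, against 11.39, 11.63 and 11.29 in Zhenshan 97 and 12.04, 11.68 and 12.26 in Minghui 63. The lines lay around Minghui 63 (difference 0.36 ± 0.06, adjusted p 1.64e-05). OsARF16 and IAA1, the second a repressor of such factors, differed by 0.59 ± 0.13 and 0.47 ± 0.12 (adjusted p 0.000889 and 0.006), and both were lost without the third Zhenshan 97 array (0.0844 and 0.166). None of the 58 was called with separate spreads.

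The hormone enzymes gave a call in each direction among 15 genes of gibberellin and brassinosteroid metabolism, another list drawn up after its values were known. OsCYP85A1, which makes active brassinosteroid, differed by -0.71 ± 0.19 (adjusted p 0.00967), with RIL levels of 5.95, 6.88 and 8.64, against 7.80, 8.04 and 9.22 in Zhenshan 97 and 7.15, 6.54 and 7.08 in Minghui 63. Os20ox2, the gibberellin oxidase of the semi-dwarf locus, was higher by 0.57 ± 0.19 (adjusted p 0.0474), with RIL levels of 7.23, 9.12 and 10.04, against 8.97, 9.17 and 9.64 in Zhenshan 97 and 7.87, 7.54 and 7.67 in Minghui 63. Its parents were apart and most lines were near Zhenshan 97. Os20ox2 was not called when any parental array was left out (adjusted p 0.0516 to 0.177), and OsCYP85A1 not called without the third Zhenshan 97 array (0.195) or the first Minghui 63 array (0.0601).

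CCCH zinc-finger proteins, many of which bind RNA, had 7 of 50 genes higher and 2 lower, and 2 called with separate spreads, in a list drawn up after its values were known. OsC3H35 had RIL levels of 10.71, 12.01 and 12.72, against 10.50, 10.46 and 10.28 in Zhenshan 97 and 12.06, 12.13 and 12.04 in Minghui 63. The arrays of each parent lay close together, most lines were at the level of Minghui 63, and the difference was 0.70 ± 0.17 (adjusted p 0.00278). Both of its other probe sets were called in the same direction (0.61 and 0.57, adjusted p 0.0161 and 0.0378). OsC3H60 had RIL levels of 10.80, 12.28 and 12.95, against 11.08, 10.65 and 11.91 in Zhenshan 97 and 11.82, 11.56 and 11.99 in Minghui 63, and 78.1% of lines exceeded all parental arrays (difference 0.72 ± 0.16, adjusted p 0.000647; with separate spreads 0.055). OsC3H3 was 0.43 ± 0.11 higher with 79.5% of lines above all parental arrays (adjusted p 0.00457).

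Cation channels and transporters for potassium and other ions had 3 of 38 genes higher and 4 lower. OsTPC1, a calcium-permeable cation channel, had RIL levels of 10.14, 10.83 and 11.43, against 9.85, 10.02 and 9.38 in Zhenshan 97 and 10.32, 10.54 and 10.50 in Minghui 63. The RIL mean lay above all parental arrays, and 84.8% of lines did too (difference 0.71 ± 0.11, SE; 1.64-fold, adjusted p 1.74e-07). It was called under all 15 alternatives. A second OsTPC1 probe set gave 0.46 ± 0.13 (adjusted p 0.017). OsKCO1, a potassium channel, rose by 0.87 ± 0.17 (adjusted p 0.000157), although the third Minghui 63 array was near the upper end of the lines: RIL levels were 8.89, 10.33 and 11.05, against 9.33, 9.44 and 8.81 in Zhenshan 97 and 9.51, 8.65 and 10.66 in Minghui 63. OsCAX2, a cation exchanger of the vacuole, fell by 0.40 ± 0.11 (adjusted p 0.00789) and was not called without the first Minghui 63 array (0.0622) or the third Minghui 63 array (0.0508). With separate spreads 1 of the 38 was called.

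Water channels had 3 of 25 genes lower and none higher, and none called with separate spreads. OsPIP2;5, an aquaporin of the plasma membrane, had RIL levels of 4.16, 5.09 and 7.79, against 7.28, 5.46 and 10.07 in Zhenshan 97 and 4.78, 4.73 and 4.93 in Minghui 63. The lines were near Minghui 63, the Zhenshan 97 arrays were far apart, and the difference of -0.98 ± 0.28 (adjusted p 0.0157) became -0.36 without the third of them (adjusted p 0.587). Glutathione transferases and redoxins, which detoxify and keep thiols reduced, had 7 of 45 genes lower and 2 higher, and 2 called with separate spreads. OsNTRA, a thioredoxin reductase, had RIL levels of 7.66, 8.37 and 9.06, against 8.86, 8.96 and 9.01 in Zhenshan 97 and 8.62, 8.75 and 8.56 in Minghui 63. Parental arrays lay close together and 76.7% of lines were below all of them (difference -0.43 ± 0.11, adjusted p 0.00572), a call made under all 15 alternatives. SGR, which starts chlorophyll breakdown in ageing leaves, was 1 of 6 senescence genes called, with a difference of -0.58 ± 0.15 (adjusted p 0.00604; 0.0979 without the third Zhenshan 97 array and 0.0748 with separate spreads). Its RIL levels were 7.69, 8.48 and 9.54, against 9.85, 9.52 and 10.38 in Zhenshan 97 and 8.31, 7.84 and 8.45 in Minghui 63.

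In the larger of the other lists calls were below the 11.9% of all named genes. Cell wall growth had 7 of 78 genes lower and 1 higher, histones and cell cycle 3 of 64 lower and 1 higher, calcium sensors 3 of 77 lower, and protein phosphatases of class 2C 3 of 55 higher. With separate spreads none of the 78, none of the 64, 1 of the 77 and 1 of the 55 were called, and with dim probe sets left out 6 of the 55 were. Among these OsPP2C47 was called under all 15 alternatives. Its RIL levels were 9.04, 9.87 and 10.32, against 9.91, 9.80 and 9.79 in Zhenshan 97 and 8.99, 8.84 and 9.12 in Minghui 63. Unlike in most called genes whose parents differed, its lines were near Zhenshan 97 (difference 0.46 ± 0.10, adjusted p 0.000656). CML29, a calmodulin-like protein, was also called under all 15, with a difference of -0.41 ± 0.10 (adjusted p 0.00342). Of 6 WRKY factors 1 was lower, of 9 anther and pollen genes 1 was lower, and none of 13 AP2/ERF and DREB factors, 20 phosphate starvation genes or 11 seed storage genes was called.

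**Figure D4:**
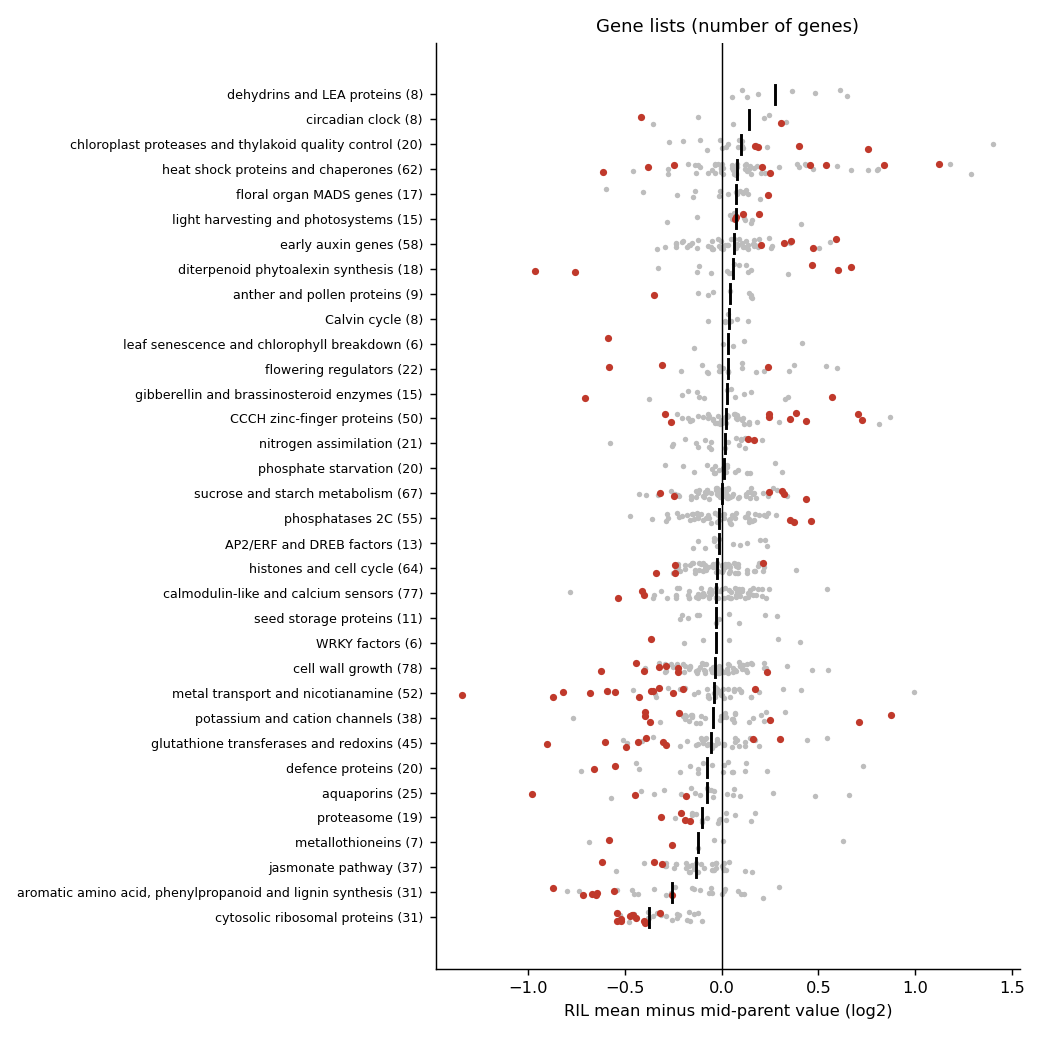
Difference of the RIL mean from the mid-parent value (log2) for every gene of the 34 lists, 1 point per gene, red where past the threshold; black ticks are list medians, and the number of genes stands in brackets. Cytosolic ribosomal proteins have the lowest median (-0.38) with all 31 genes below 0, and dehydrins and LEA proteins the highest (0.28) with no gene called.

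Where a probe set was called both off the mid-parent value and between the parents, the RIL mean was mostly on the side of Minghui 63. The side is not given here for all 4887 probe sets whose parents differed. Among the 1037 probe sets called in both contrasts, 1005 (96.9%) had a RIL mean nearer Minghui 63 and 32 nearer Zhenshan 97. Both contrasts use the same 6 parental arrays, and a Zhenshan 97 array that is far out moves both, so this share is a description with no test. It was 76.6% of 244 with separate spreads and between 86.9% and 99.3% when a parental array was left out.

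Wider parental differences gave the same side. In 483 probe sets of 300 genes or of no gene, the parents were called different by 2 log2 units or more, 304 of them higher in Zhenshan 97 and the others in Minghui 63. For these the share of RILs nearer the Minghui 63 mean had a median of 69% (quartiles 52.9% and 82.9%), and 389 of the 483 had more than 50% of lines there. The median was 65.7% where Minghui 63 was the higher parent and 70.5% where Zhenshan 97 was. In 32 probe sets over 95% of the lines were nearer Minghui 63, and in none were under 5%. All 32 were called off the mid-parent value, 10 of them with separate spreads. Their Zhenshan 97 arrays were often far apart, with an SD of 0.26 to 2.70 (median 1.42), against 0.0578 to 0.958 (median 0.189) for Minghui 63, and in 17 of the 32 a Zhenshan 97 array was itself nearer the Minghui 63 mean. Only 85 of the 483 left the mid-parent value by the test, 81 toward Minghui 63 and 4 toward Zhenshan 97. LOC4332530 and OsZIP4, given above, are among the 32, with 100% and 98.1% of lines nearer Minghui 63, and both were called with separate spreads. Over all probe sets the SD between the 3 arrays of a parent had a median of 0.19 in Zhenshan 97 and 0.161 in Minghui 63, and its part in this lean was not tested.

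**Figure D5:**
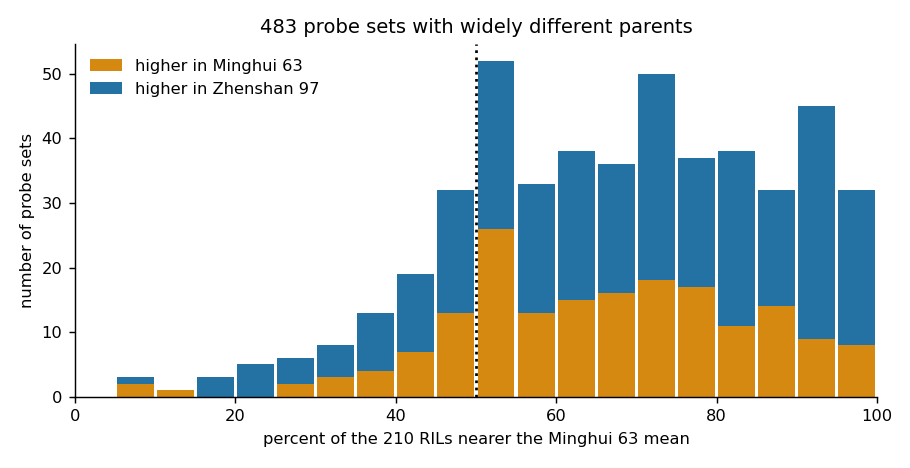
Number of probe sets by the percent of the 210 RILs whose level is nearer the Minghui 63 mean, for the 483 probe sets with parents apart by 2 log2 units or more, coloured by the higher parent. The dotted line is at 50%, and 389 probe sets have more lines on the Minghui 63 side of it.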

How the data were processed

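RNA of 210 RILs (1 array each), Zhenshan 97 and Minghui 63 (3 arrays each) was hybridized to the Affymetrix rice genome array. The deposited table gives a log2 level for every probe set, computed by the authors with RMA in the affy package of R; the sources used here name no version of either. They are not counts, so the number of arrays limits the precision. No value was renormalized, 123 control probe sets of 57381 were left out, and no column of other samples was found. The RIL group came from the variety given for each sample, and the parental groups from the sample titles.

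Group means of all arrays were fitted with limma 3.58.1 in R 4.3.3 (lmFit, eBayes with trend). The contrasts were RIL minus the mid-parent value, RIL minus each parent (same sign, larger p) and Minghui 63 minus Zhenshan 97, each two-sided and adjusted by Benjamini-Hochberg over 57258 probe sets, with calls at 0.05. The routine was tested on simulated data with a common spread for RILs and parents and no difference between the parents. That test cannot speak to unequal spreads or to single parental arrays that lie far out. Alternatives were no trend, separate spreads, a dim filter, quantile normalization, centring, RNA quality as a covariate, a replicate block and leaving out arrays. After seeing the data, fits without close pairs of RILs and without the 4 RIL arrays farthest from the median array were added.

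Gene names came from the platform annotation and the gene table of assembly ASM3414082v1: 22436 probe sets paired with 1 gene, 95 with several and 34727 with none, and 3186 probe sets of 2451 genes had a name. The tables hold no gene descriptions, so the rule for named genes used names instead. From called probe sets, 1 per gene, it took the 15 largest and 15 smallest differences, those outside both parents, and up to 4 members of each list. The 34 lists were built from name patterns, and 7 of them (metal transport, aromatic synthesis, CCCH proteins, chloroplast proteases, phosphatases 2C, cation channels, hormone enzymes) were added after seeing values. The members and all lists were chosen with earlier results of these data known. Lists of chloroplast ribosomal proteins, class III peroxidases and immune receptors had too few named members and were dropped. No sequence was given for this organism, so the planned search of promoters was not run. The present calls and the genetic mapping of the study were not repeated.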

Additional observations from a re-analysis of the deposited data

How the results depend on the processing

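Of the 15 alternative fits, 12 left the number of probe sets off the mid-parent value within 1.5 times of 4286. It was 931 with separate spreads for RILs and parents, and between 2426 and 4393 when a parental array was left out. The share of calls that were higher in the RILs was 43.8%, against 74.5% with separate spreads (694 of 931), 36.5% for centred arrays (1568 of 4297) and 49.5% after quantile normalization (2269 of 4583). No scaling moved the median of all differences by over 0.1.

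For the 10 probe sets outside both parents the count was 20 with the RNA quality covariate, 17 with the dim filter, 17 after quantile normalization, 23 with separate spreads, and between 2 and 22 when a parental array was left out. All but a few were higher in the RILs (18, 16, 17 and 22 of the first 4 counts).

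Of the called probe sets drawn by the rule for named genes, as outside both parents, for their size or as just inside the threshold (with or without a gene name), 43 were still called with separate spreads and 92 were not, and between 20 and 50 were lost when a parental array was left out. None changed sign. Among genes that were never called, 5 did so when a parental array was left out: TK ran between -0.26 and 0.082, CBF3 between -0.36 and 0.12, OsWRKY76 between -0.0435 and 0.76, OsPht1;1 between -0.46 and 0.25, and OsMADS1 between -0.44 and 0.0023. TK changed sign without the second Minghui 63 array and without the first (0.0128) or the third (0.0383) Zhenshan 97 array. The cause of these changes was not tested.

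The replicate numbers of the parents do not pair samples: the deviations of same-numbered arrays correlated at -0.20, -0.26 and -0.07, and the RILs carry no such number. With the number as a block 4310 probe sets were called off the mid-parent value and 11 outside both parents.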

Other observations

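A run of 256 probe sets with OsAffx numbers around OsAffx.32222.1.A1_at, of which 1 pairs with a gene, was higher in the RILs more often than the rest. Of these, 71 were called, all higher (27.7%, against 3.82% of 25244 other OsAffx probe sets called in either direction), 94.1% lay above 0, and the median difference was 0.40 (quartiles 0.20 and 0.78). The parents differed in none of the 256. With separate spreads 43.4% were called. The mean level over the run was 6.31, 7.30 and 8.29 in the RILs (lowest, median and highest line), against 6.596, 6.85 and 6.90 in Zhenshan 97 and 6.78, 6.81 and 6.83 in Minghui 63 (each in rising order), so lines lay both below and above all parental arrays. The highest of the run, OsAffx.32222.1.A1_at, had RIL levels of 3.75, 6.54 and 8.30, against 4.59, 4.73 and 4.20 in Zhenshan 97 and 5.35, 5.06 and 5.50 in Minghui 63, and 87.1% lines exceeded all 6 (difference 1.59 ± 0.32, adjusted p 0.000201, limma). OsAffx.32222.1.A1_at was called under all 15 alternatives. Among the other high members, OsAffx.32262.1.S1_x_at, OsAffx.32226.1.A1_at and OsAffx.32323.1.S1_s_at were lost with RNA quality as a covariate, and each also without some of the parental arrays. The run was noticed after the values were seen, what the probe sets measure is not stated in the tables, and whether they share sequence was not tested.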
